A study of Homo sapiens with 4 samples.

Results

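The genes of the proteasome were examined in a clonal human breast cancer line after depletion of SNRNP40, a spliceosome protein that belongs to the U5 snRNP. The members were the gene symbols of the deposited transcript table that start with PSMA to PSMG followed by a number, without PSMB8 and PSMB9. There were 47 such symbols of 23217 in all. Among these, 46 are genes of the proteasome, its regulators and its assembly chaperones, with 80 of the 44578 listed transcripts. The remaining symbol, PSMC3IP, matches by its letters only: its protein acts in homologous recombination and was named as a partner of PSMC3. It was kept apart. The 46 genes comprised 17 of the core (PSMA and PSMB), 6 of the ATPase base (PSMC), 14 PSMD genes grouped here as lid, 4 activators (PSME), 4 assembly chaperones (PSMG) and the inhibitor PSMF1.

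LV-M100 is 1 clone of MDA-MB-231, a basal-like and mesenchymal breast cancer line, and is a subpopulation with low variability between its cells. Cells of this clone received siRNAs by lipid transfection, and total RNA without ribosomal RNA was sequenced 48 h later. The control condition comprised 2 libraries, from NC1 and from the BLOCK-iT Fluorescent Oligo, and the depleted condition comprised 2 libraries, from siSNRNP40 #1 and siSNRNP40 #2. The table gives 1 pooled FPKM value (sequenced fragments scaled to transcript length and to mapped fragments) per transcript and condition. Replicate error and depth are therefore unknown, no difference was tested here, and what only 1 of the siRNAs did cannot be separated from what depletion of the target did. Values are FPKM summed over the listed transcripts of a gene, and changes are log2 ratios of the depleted to the control condition, with no pseudocount added. Where a pair of FPKM values is given, the control condition comes first.

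The proteasome is the protease that degrades most ubiquitin-tagged proteins of the nucleus and cytosol. Its core is a barrel of stacked rings, with outer alpha rings that gate the channel and inner beta rings that carry the catalytic sites. A ring of ATPases unfolds the substrate and feeds it into the barrel, and a lid removes the ubiquitin chain. Most subunits are needed in every cell, and cells raise transcription of the whole set through the factor NRF1 (gene NFE2L1) when proteasome activity falls.

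The siRNAs against SNRNP40 are shown because any run of bases that they share with a proteasome transcript bears on how the members can be read. Capitals mark the bases opposite the seed, positions 2 to 8 of the guide strand, if the guide begins opposite the last printed base.

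siSNRNP40 #1: ggaauagacaAUGAUAUc

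siSNRNP40 #2: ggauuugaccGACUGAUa

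Canonical transcripts of the 46 genes (GENCODE on GRCh37) were searched for these sequences. For siSNRNP40 #1 the longest shared run in the sense direction was 10 bases, from base 9 to base 18 of the siRNA, in PSMD1. A run of 10 bases, from base 1 to base 10, was shared with PSMD5 in the antisense direction. Seed sites of the printed strand itself were not searched. For siSNRNP40 #2 no run exceeded 8 bases. The seed site of siSNRNP40 #1 was present in 4 of the 46 transcripts (8.7%, against 20.5% of 10325 canonical transcripts of measured genes). These were PSMA1, PSMD1, PSME4 and PSMF1, with a median log2 fold change of -0.027, against 0.043 in the 40 measured members without the site. The seed site of siSNRNP40 #2 was present in 6 (13%, against 16.2%). These were PSMB1, PSMB3, PSMC2, PSMD5, PSMD7 and PSMD13, with a median of 0.084, against 0.033 in the 38 without it. Measured members have shorter canonical transcripts than all measured genes (medians of 1529 and 3323 bases), and the shares were not adjusted for length. Any part of such sites in the values was not tested.

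The target of the siRNAs had FPKM values of 40.4 and 6.12, a log2 fold change of -2.72. All genes together summed to 516056 and 517152. Of the markers of the cell line, VIM, CD44, KRT18 and EGFR were present with control siRNA (FPKM from 18.3 for EGFR to 750.1 for VIM). ESR1, PGR and CDH1 were below an FPKM of 0.1 in both conditions, whereas ERBB2 (6.56) and EPCAM (10.6) were low but present. The leukocyte marker PTPRC was listed at 0, and PECAM1 and COL1A1 were at 0.922 and 0.099.

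Proteasome transcripts stayed close to their control levels. A gene was counted as measured when the mean of its values in the conditions reached an FPKM of 1. Of the 46 genes, 44 did, with means from 10.5 (PSMB2) to 617 (PSMA6), while the testis form PSMA8 and the thymus form PSMB11 were listed at 0 in both. Together they summed to an FPKM of 5260 and 5417, or 1.02% and 1.05% of the total. The log2 fold changes of the 44 genes lay between -0.28 (PSMA4) and 0.32 (PSMB5). Their median was 0.033, against 0.0034 for all 12334 measured genes, a gap that cannot be set against a replicate error. More of them were above 0 (28) than below (16), a share of 63.6% where 50.5% of the 12334 genes were above 0. Among the 6394 genes whose mean FPKM reached 10, the range that holds all 44 members, this share was 47.2%.

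An absolute log2 fold change above 0.25 was used as a limit for a small change, since few genes reach the limit of 1 that the study applied to single transcripts. PSMB5, PSMB1 and PSMD11 were above it and PSMA4 was below -0.25, so 4 of 44 genes (9.09%) were past the limit. The share of the 12334 measured genes past it was 33.7%, of which 17.2% were higher and 16.5% lower. Scatter is larger at low FPKM, and among the 6394 genes whose mean FPKM reached 10 the share was 25%. Of these 6394, 10.6% were higher and 14.4% lower. Their mean FPKM had a median of 26.3, against 84.7 in the members, so this background has the same floor but is not matched in level. With upper-quartile scaling of the conditions PSMD13 passed the limit and PSMA4 did not, so that 4 genes were higher and 0 lower. Of the 44 genes 0 passed 0.5, where 10.3% of the measured genes and 4.96% of the 6394 did, and 0 passed 1, where 1.47% and 0.422% did. The median absolute log2 fold change was 0.094 in the proteasome genes and 0.14 in the 6394 genes.

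**Figure D1:**
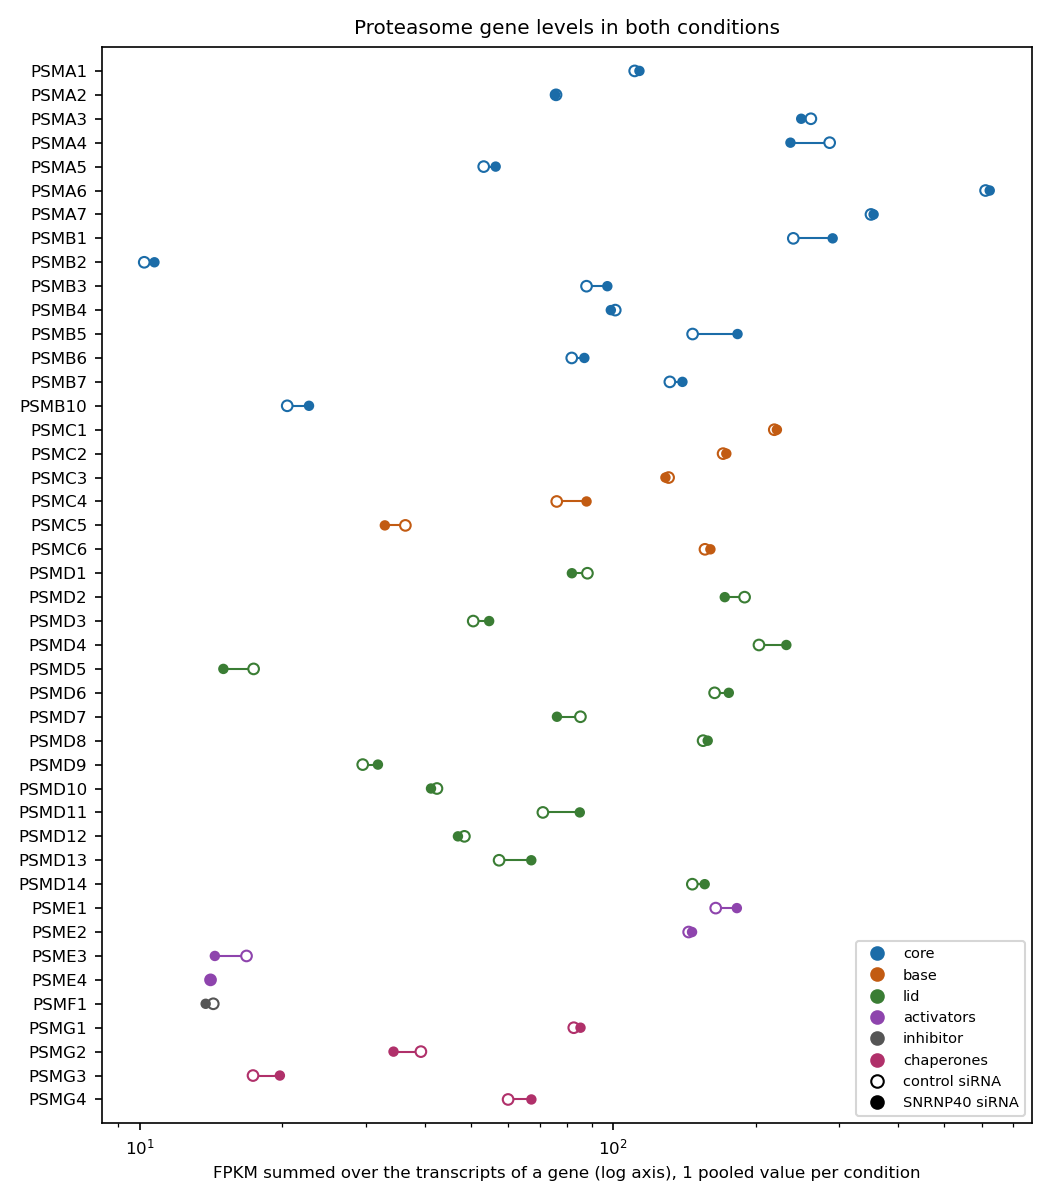
Levels of the 44 measured proteasome genes on a log axis of FPKM summed over the transcripts of a gene, with 1 pooled value per condition. Open circles are control siRNA, filled circles SNRNP40 siRNA and colours the subunit groups. The levels span 10.5 to 617 in mean FPKM, and the circles of a gene lie close to each other beside this range.

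**Figure D2:**
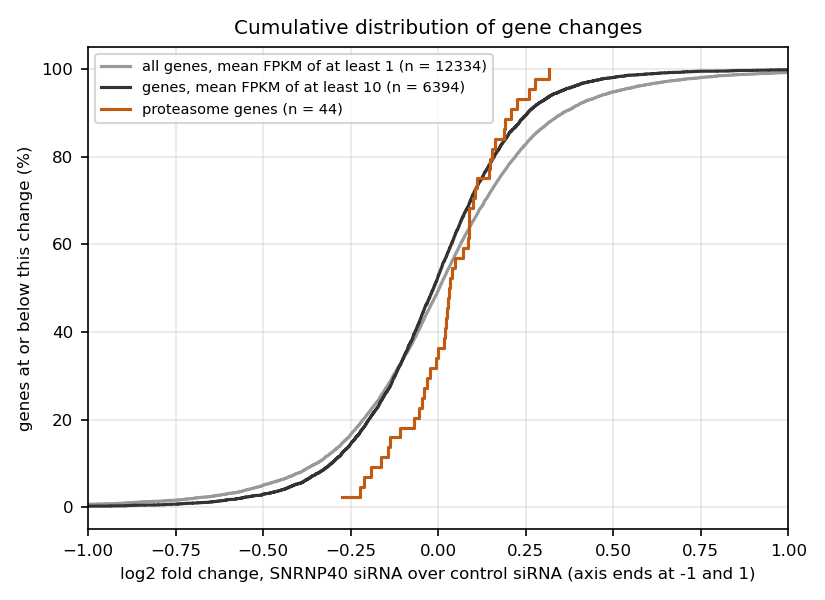
Cumulative share of genes (%) against the log2 fold change of SNRNP40 siRNA over control siRNA, for the 44 proteasome genes, all 12334 measured genes and the 6394 whose mean FPKM reached 10. The proteasome curve runs from -0.28 to 0.32, inside the range of both backgrounds.

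Both figures show the same pattern. The order of the subunits by level was set by the gene far more than by the condition. The curve of the members is steeper than those of the backgrounds, whose genes had lower levels by their medians.

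The genes of the alpha ring had the highest summed level. PSMA6 had the highest level of any member, at an FPKM of 611 in the control and 624 after depletion, followed by PSMA7 with 350.1 and 355. An annotated pseudogene, PSMA6P1, matches 72.4% of the PSMA6 transcript at 97.4% identity, so the level of PSMA6 may include its reads. PSMA5 had the lowest level of this ring, at 53.3 and 56.5, so levels within the ring spanned 11.3-fold. These structural subunits are present in equal number in the assembled ring, whereas the FPKM values of their genes were not equal. FPKM is scaled to the annotated transcript length, so these values may differ from the levels of RNA. Of the 7 measured alpha genes, 6 stayed near their control level, with log2 fold changes from -0.068 (PSMA3) to 0.084 (PSMA5). The exception was PSMA4, whose FPKM was 286 in the control and 237 after depletion, a log2 fold change of -0.28 and the lowest of all members. On chromosome 15 of GRCh37 it spans 78832747 to 78844759 on the plus strand, with 9 exons in its canonical transcript. The FPKM of the alpha ring summed to 1749 and 1710.

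Of the 8 measured beta genes, 7 had a log2 fold change above 0, where 50.5% of all measured genes did. Past the limit of 0.25 were 2 of the 8, against 33.7% of all measured genes and 25% of the 6394. The summed FPKM of the beta genes was 820.1 and 930.1. Their median log2 fold change was 0.12, against 0.019 in the alpha ring. With 1 value per condition this difference between the rings was not tested.

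PSMB5 carries the chymotrypsin-like site of the core, the main target of the drug bortezomib. It was at 147 in the control and 183 after depletion, the largest log2 fold change of any member (0.32). PSMB6 and PSMB7, which carry the caspase-like and trypsin-like sites, were at 81.7 and 86.9 (0.089), and at 132 and 140 (0.088). All 3 constitutive catalytic genes were thus above 0, PSMB5 alone past the limit. PSMB1, a structural beta subunit, was at 240 and 291 (0.28). PSMB3 was at 87.8 and 97.2 (0.15), and PSMB4 was the single beta gene below 0, at 101 and 98.8 (-0.031). PSMB2 had the lowest FPKM of all measured members, 10.2 and 10.8 (0.072), although its protein is as much a part of the ring as PSMB1. The canonical transcript of PSMB2 has 4426 bases and that of PSMB1 891. Any part of length in these values was not tested. Levels within the beta genes spanned 25.3-fold.

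The minus-strand gene PSMB5 spans 23485752 to 23504439 on chromosome 14 of GRCh37, with 3 exons, and another annotated gene on the same strand, AL132780.1, shares exonic bases with it. PSMB1, also on the minus strand, spans 170844208 to 170862395 on chromosome 6, with 6 exons and no such overlap. Fragments of a gene and of one that overlaps it may not be told apart in the values.

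Interferon raises an alternative set of catalytic subunits, which form the immunoproteasome, and the activator genes PSME1 and PSME2. PSMB10, the immunoproteasome counterpart of PSMB7, was at an FPKM of 20.5 and 22.8 (log2 fold change 0.15). PSMB8 and PSMB9, which the definition of the members leaves out, were at 76.9 and 82.0 (0.092), and at 33.5 and 36.2 (0.11). PSME1 was at 165 and 182 (0.15), and PSME2 at 144 and 147 (0.024). All 5 interferon-inducible genes were above 0, where 50.5% of all measured genes and 47.2% of the 6394 were. None of the 5 exceeded the upper quartile of all genes, 0.17.

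The ATPases of the base stayed near their control levels. Of the 6 genes, 4 were above 0 and 2 below, with a median log2 fold change of 0.020. PSMC1, PSMC2, PSMC3 and PSMC6 stayed within 0.04 of 0, from 131 and 129 for PSMC3 (-0.023) to 156 and 160.4 for PSMC6 (0.039). PSMC4 was higher, at an FPKM of 76.0 and 87.8 (0.21), and PSMC5 was lower, at 36.4 and 33.0 (-0.14). PSMC5 also had the lowest level of the ATPase ring, 6.35-fold under that of PSMC1. Exons of FTSJ3 overlap those of PSMC5 on the opposite strand, and whether strand was used in the authors' quantification is not given in the sources used here.

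The 14 PSMD genes had a median log2 fold change of 0.060, with 8 above 0 and 6 below. They differ in structural role. Of the 8 genes of the lid proper, 6 were above 0 and the median was 0.093. PSMD11, a lid subunit that also contacts the alpha ring, was at an FPKM of 71.0 in the control and 85.0 after depletion (0.26). PSMD13 was at 57.4 and 67.2 (0.23), and PSMD14, the deubiquitinase of the lid, at 147 and 156 (0.088). Its partner in the lid, PSMD7, had the lowest log2 fold change of the 8, at 85.3 and 76.1 (-0.16). PSMD11 spans 30771397 to 30810337 of chromosome 17 on the plus strand, with 14 exons, and an annotated gene on the other strand shares exonic bases with it.

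The non-ATPase subunits of the base lay on both sides of 0. PSMD1 and PSMD2, the large scaffold subunits, were lower, at 88.2 and 81.8 (-0.11) and at 189 and 172 (-0.14). PSMD4, a receptor for ubiquitin chains, was higher, at 203 and 232 (0.19). Reads of PSMD4 may be shared with the annotated pseudogene PIPSL, which matches 84.1% of its transcript at 97.5% identity. PSMD5, PSMD9 and PSMD10 are chaperones that assist assembly of the base and are absent from the finished particle. PSMD5 was at 17.4 and 15.0 (-0.21), the lowest log2 fold change among the PSMD genes, while PSMD9 was at 29.6 and 31.9 (0.11) and PSMD10 at 42.5 and 41.2 (-0.042).

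Other regulators bind the open end of the barrel in place of the ATPase cap. PSME3, a nuclear activator, was at an FPKM of 16.8 and 14.4 (log2 fold change -0.22). PSME4, an activator linked to histone degradation, was at 14.1 in both conditions. PSMF1, first described as an inhibitor, was at 14.3 and 13.8 (-0.054). The 4 activators had a median log2 fold change of 0.012, with 2 above 0 and 2 below.

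The PSMG genes encode chaperones that build the alpha ring. PSMG1 and PSMG2 work as a pair, and so do PSMG3 and PSMG4. PSMG3 was at an FPKM of 17.4 and 19.8 (0.19), and PSMG4 at 60.0 and 67.2 (0.16). PSMG1 was at 82.5 and 85.3 (0.047), whereas PSMG2 was lower, at 39.3 and 34.4 (-0.19). The partners PSMG1 and PSMG2 thus lay on opposite sides of 0 in the sums, but not in their most expressed transcripts, which were at -0.091 and -0.080.

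**Figure D3:**
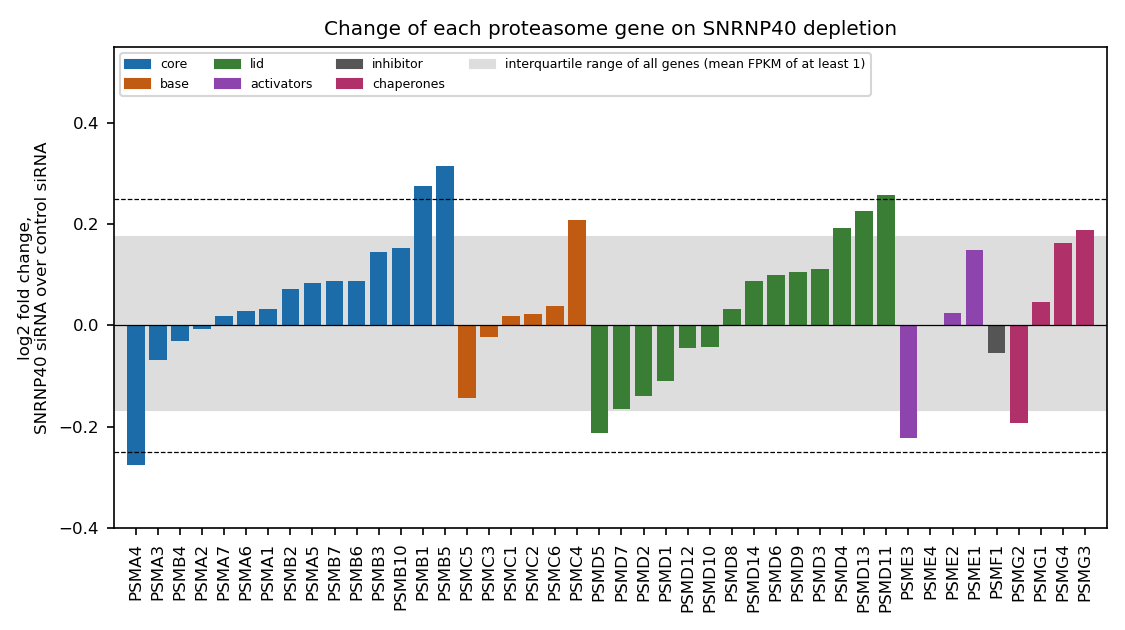
Log2 fold change of each of the 44 measured proteasome genes (SNRNP40 siRNA over control siRNA), ordered within subunit groups that are marked by colour. Dashed lines mark 0.25 and -0.25, and the grey band is the interquartile range of the 12334 genes (-0.17 to 0.17). PSMB5, PSMB1 and PSMD11 reach above the upper line and PSMA4 below the lower one.

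The bars of the plot show that each group held genes on both sides of 0 except the single inhibitor. The core ranged from -0.28 to 0.32, the lid from -0.21 to 0.26 and the base from -0.14 to 0.21.

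Single transcripts of proteasome genes had a wider range of log2 fold changes than the sums. Of the 80 listed transcripts of the 46 genes, 9 were listed at 0 in both conditions and 4 in 1 condition. Another 64 were measured by the same limit as the genes and were above 0 in both conditions. Of these 64, 2 (3.12%) passed an absolute log2 fold change of 1, 1 higher and 1 lower, against 10.5% of the 16691 such transcripts of all genes, 5.5% higher and 5.04% lower. Among transcripts of all genes whose mean FPKM reached 10, the share was 1.65%. Both belong to genes with several listed transcripts, where the share was 5% of 40 members and 16.9% of 9639 transcripts in all. The values of such transcripts rest on how the authors' software divided fragments between them, and the table does not describe the exons that set them apart.

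A minor transcript of PSMB5 was at an FPKM of 2.89 in the control and 9.78 after depletion (log2 fold change 1.76). It made up 1.97% of the FPKM of PSMB5 in the control and 5.34% after depletion. The main transcript was at 123 and 150 (0.29), close to the change of the sum. In PSMA3 a minor transcript was at 15.3 and 5.90 (-1.38), or 5.86% and 2.36% of the gene, while the main one was at 243 and 241 (-0.015). The difference in PSMA4 lay mostly in 1 of its 3 transcripts, which was at 100.5 and 64.3 (-0.65), whereas the most expressed was at 180.3 and 166 (-0.12).

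PSMC4 had the most divided pair of well expressed transcripts. The first was at an FPKM of 44.3 in the control and 32.4 after depletion (log2 fold change -0.45), and the other at 31.7 and 55.4 (0.81). The latter made up 41.7% of PSMC4 in the control and 63.1% after depletion, so the most expressed transcript was not the same in both conditions. PSMC2 and PSMC5, ATPases of the same ring, also had transcripts on both sides of 0. In PSMC2 these were at 55.1 and 42.0 (-0.39) and at 116 and 131 (0.18), and in PSMC5 at 26.4 and 20.5 (-0.37) and at 9.99 and 12.4 (0.32). The log2 fold changes of the summed genes were 0.022 for PSMC2 and -0.14 for PSMC5. Across the 20 measured genes with several listed transcripts, 9 (45%) had transcripts of both signs, close to the 41.5% of the 5282 such genes in all. A transcript of PSMG2 at 2.92 in the control was listed at 0 after depletion. It has no log2 fold change and was left out of the counts of transcripts, although its mean FPKM of 1.46 reached the limit.

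**Figure D4:**
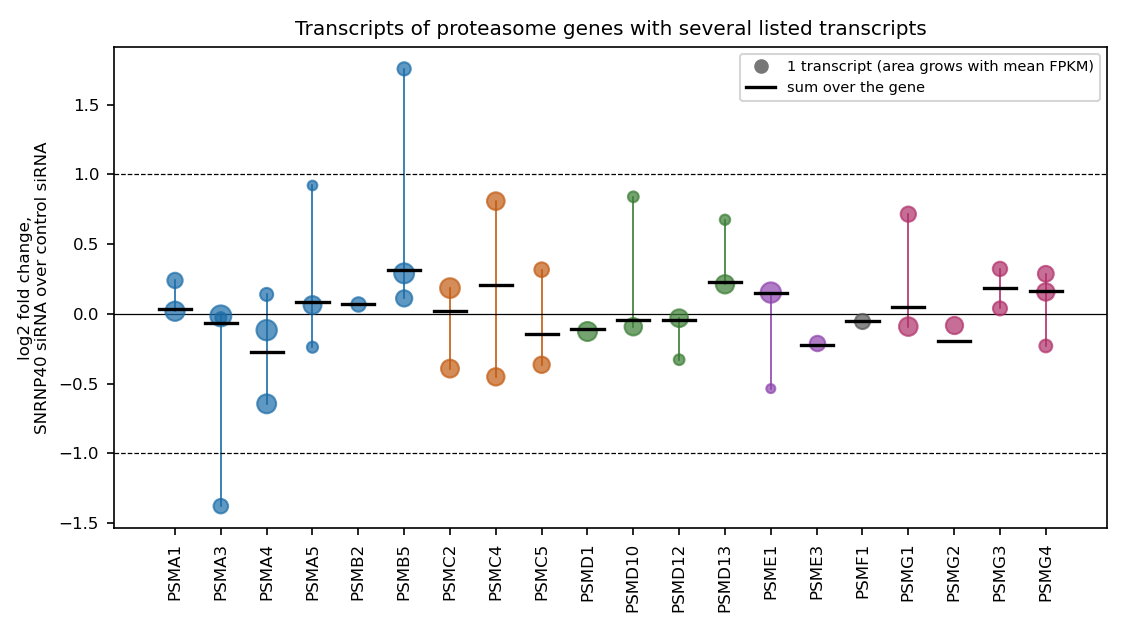
Log2 fold change (SNRNP40 siRNA over control siRNA) of the measured transcripts in the 20 proteasome genes with several listed transcripts. Circles are transcripts, with an area that grows with mean FPKM, and black bars are the change of the summed gene. The transcripts past the dashed lines at 1 and -1 are minor ones of PSMB5 (1.76) and PSMA3 (-1.38), and the bars stay between -0.28 and 0.32.

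In the plot of transcripts the far ends of the lines of PSMA5, PSMB5 and PSMD10 are small circles, of weakly expressed transcripts. PSMC2, PSMC4 and PSMC5 are the ATPase genes with circles on opposite sides of 0.

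PSMC3IP, the symbol that matches by letters only, had 8 listed transcripts. Its summed FPKM was 26.9 and 21.1, a log2 fold change of -0.35, lower than that of any proteasome gene. Its most expressed transcript was at 14.5 and 7.83 (-0.89), another at 2.25 and 0.152 (-3.88), and one more at 0.767 and 2.71 (1.82).

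Genes that act with the proteasome were taken from a list of 25 partners and regulators. Of these, 14 were above 0 and 11 below, and 5 were past the limit of 0.25, 2 higher and 3 lower, against 33.7% of all genes. The stoichiometric subunits without a PSM name were both above 0 and within the limit. SHFM1, the small lid subunit now called SEM1, was at 223 and 258 (0.21), and ADRM1, a ubiquitin receptor, at 60.8 and 67.1 (0.14). POMP, the maturation factor of the core, was at 73.5 and 76.1 (0.049). Of the factors that make NRF1, NFE2L1 itself was at 23.3 and 25.2 (0.11) and the segregase VCP at 158 and 167 (0.086). The protease DDI2, which cleaves NRF1, was lower at 6.18 and 4.87 (-0.34), and NGLY1, which removes its sugars, was at 28.7 and 25.01 (-0.20) as a sum and at a log2 fold change of -1.03 in its most expressed transcript.

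Among ubiquitin genes and shuttle factors, values past the limit lay on both sides of 0. RPS27A, which encodes ubiquitin fused to a ribosomal protein, was at an FPKM of 767 and 977 (log2 fold change 0.35). UBB, a polyubiquitin gene, was lower, at 759 and 625 (-0.28). UBQLN1, a shuttle factor for ubiquitin-tagged proteins, was at 52.8 and 42.6 (-0.31). ZFAND2A, a stress-induced protein that binds the proteasome, was at 14.1 and 17.7 (0.32). Copies of these partner genes elsewhere in the genome were not searched.

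Other complexes of many subunits are given beside the proteasome. The cytosolic chaperonin CCT had a median log2 fold change of -0.058 over 8 genes, of which 0 passed 0.25 in either direction. The COP9 signalosome, whose subunits are related to those of the lid, had a median of -0.064 over 9 genes, with 1 past the limit. The initiation factor eIF3, also related to the lid, had a median of -0.0039 over 13 genes, with 2 past it. Their values ran from -0.23 to 0.043, from -0.43 to 0.23 and from -0.36 to 0.29. These ranges overlap that of the proteasome genes. The median absolute log2 fold change was 0.058 in CCT, 0.11 in COP9 and 0.069 in eIF3, against 0.094 in the proteasome genes. The differences between the medians were not tested.

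Sequences before the start sites were taken from RefSeq on GRCh38, for 40 of the 46 genes. PSMA7, PSMB1, PSMB6, PSMB7, PSMD4 and PSMG3 were not among them. The core of the antioxidant response element, TGACNNNGC, through which NRF1 and NRF2 act, was searched on both strands in the 250 bases before each start. It was present in 12 of the 40 genes (30%), against 15.8% of 8440 measured genes and 13.2% of 27305 genes in all. CCAAT, the site of NF-Y, was present in 18 (45%, against 42.5% of the measured genes), and GGAAGTG, a site of ETS factors, in 8 (20%, against 16.1%). No match of one motif overlapped a match of another. The 12 genes with TGACNNNGC had a median log2 fold change of 0.012, and the 26 measured genes without it 0.031. A match is a run of letters and does not show that a factor binds there.

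Windows around this element are printed for 6 of the 12 genes, from the lowest to the highest log2 fold change among them, read along the gene with the motif in capitals. PSMA4 and PSMD5 were among the lowest members (-0.28 and -0.21), PSMD12 lay near 0 (-0.045), and PSMD3, PSMB3 and PSME1 were above 0 (0.11, 0.15 and 0.15). The window of PSMA4 belongs to the last of its 3 RefSeq starts.

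PSMA4 (chr15:78540650-78540678, plus strand): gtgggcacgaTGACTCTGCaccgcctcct

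PSMD5 (chr9:120843038-120843066, minus strand): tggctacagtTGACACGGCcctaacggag

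PSMD12 (chr17:67366724-67366752, minus strand): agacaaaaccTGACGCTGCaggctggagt

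PSMD3 (chr17:39980760-39980788, plus strand): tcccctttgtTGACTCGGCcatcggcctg

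PSMB3 (chr17:38752627-38752655, plus strand): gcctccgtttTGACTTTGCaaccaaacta

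PSME1 (chr14:24136098-24136126, plus strand): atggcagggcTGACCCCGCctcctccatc

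The highest log2 fold change among the 12 genes with the element was that of PSME1 (0.15), and the members above it either lacked the element or had no entry. For the members with the highest log2 fold changes that have an entry, PSMB5 and PSMD11, the 250 bases before the start are given whole, for PSMB5 before the first of its 2 RefSeq starts. Capitals mark a match of any of the 3 motifs. The printed stretch of PSMB5 held a CCAAT, and that of PSMD11 held none of the 3. The stretch before the other start of PSMB5, which is not printed, held a GGAAGTG.

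PSMB5 (chr14:23035221-23035470, minus strand): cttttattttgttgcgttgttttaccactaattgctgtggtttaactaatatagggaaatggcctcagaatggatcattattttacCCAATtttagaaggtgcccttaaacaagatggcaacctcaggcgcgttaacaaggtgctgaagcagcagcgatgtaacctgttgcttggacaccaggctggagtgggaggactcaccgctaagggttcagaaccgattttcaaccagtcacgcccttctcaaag

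PSMD11 (chr17:32444260-32444509, plus strand): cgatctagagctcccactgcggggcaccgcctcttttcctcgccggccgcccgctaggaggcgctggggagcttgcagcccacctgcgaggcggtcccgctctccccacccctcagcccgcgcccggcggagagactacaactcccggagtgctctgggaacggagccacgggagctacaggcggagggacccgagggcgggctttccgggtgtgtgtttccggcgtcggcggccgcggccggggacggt

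Gene structure varied widely among the members. Canonical transcripts of the 44 measured genes had from 2 exons (PSMG3) to 47 exons (PSME4), with a median of 9, as for all measured genes found in the annotation. Their lengths had a median of 1529 bases, against 3323 bases for all. Spearman's rho between log2 fold change and exon number was -0.22 across the 44 genes, and with transcript length it was -0.33. Across the 5536 annotated genes whose mean FPKM reached 10 these were -0.12 and -0.21. All points of each correlation come from the same pooled libraries, and the sign of both correlations was the same among all genes as among the members. PSME4, with the most exons, was at 14.1 in both conditions, and PSMD1 with 25 exons and PSMD2 with 21 were lower, by the values given above. PSMB5, with 3 exons, had the highest log2 fold change, and PSMB1 (0.28) has 6. Other members went the other way: PSMD11 (0.26), PSMD13 (0.23) and PSMC4 (0.21) have 14, 13 and 11 exons. The lowest member, PSMA4 (-0.28), has 9.

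Reads of some members cannot be assigned with certainty. Annotated pseudogenes matched at least 50% of the transcript at 90% identity or more in 8 of the 44 genes. These were PSMA6, PSMB3, PSMC3, PSMC6, PSMD2, PSMD4, PSMD8 and PSME2, whose values may include reads of the copies. Exons of another annotated gene overlapped the canonical exons on the same strand in 6 of the 44 genes and on the opposite strand in 6. PSMA4, PSMB1, PSMB5, PSMC4 and PSMD11 were not among the 8 genes with such pseudogenes. The limit of 50% can miss a copy of only part of a long transcript. The canonical transcripts of PSMA4 and PSMD11 have 4378 and 3850 bases, so the search does not show that these genes lack copies.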

How the data were processed

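As deposited by the authors, the table holds 1 FPKM value per transcript and condition, with the 2 libraries of each condition pooled. Per the study's methods, cutadapt 1.2.1 removed linkers and poor bases, TopHat 2.0.8 aligned the reads (hg19), and Cufflinks, cuffmerge and cuffdiff (all 2.0.2) gave the values. Isoform values divide shared fragments between transcripts by a model. The table also holds the authors' fold changes, test statistics, p-values and q-values, which were not used. Depth is unknown.

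For each gene symbol the FPKM of its transcripts was added up. Genes and transcripts were kept if their mean reached an FPKM of 1 and neither value was 0. Without values per library no test was run, so lists are described by counts and medians beside those of all genes. The limits on the log2 scale were 0.25 for genes and 1 for transcripts. The genes named were any of the 46, with fuller accounts for the extremes of each group, the catalytic and interferon-inducible genes, PSMF1, PSMC3IP, transcripts past 1 and partners past 0.25. Other partners and the further transcripts described (PSMA4, PSMC2, PSMC4, PSMC5, PSMG2) were named after their values were seen. Values of some partner genes are not reported here. The members and lists were chosen with earlier results of these data known.

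Positions, exons and canonical transcripts came from GENCODE release 44 on GRCh37, the build of hg19, and 83.7% of measured genes were found by symbol or older symbol. Pseudogenes were searched with blastn 2.17.0. Of 48 promoter sequences, the ends of 39 were found in the canonical transcript on the same strand and 0 on the other. Versions were 3.11.15 for Python, 2.4.6 for numpy, 2.3.3 for pandas, 1.17.1 for scipy and 3.10.9 for matplotlib. Summing and calling were tested on simulated data.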

Additional observations from a re-analysis of the deposited data

How the results depend on the processing

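No paired analysis was possible because libraries are pooled in the table and its columns carry no replicate numbers, and for the same reason no library could be left out. Values of the log2 fold change were counted as moved from 0.1 on, and counts above a factor of 1.5. The median of the proteasome genes (0.033) lay between 0.029 after centring and 0.062 with upper-quartile scaling, and the medians of the 5 groups also stayed within 0.1 of their values under every alternative run. The numbers of genes past 0.25 were 3 higher and 1 lower. The most expressed transcript of each gene in place of the sum gave 5 higher and 1 lower (PSMB1, PSMB5, PSMD11, PSMC4 and PSMG3, and PSMC5). Upper-quartile scaling gave 4 and 0, limits of 0.5 and of 1 gave 0 and 0, and genes with 1 listed transcript, a choice made after the data were seen, gave 2 and 0, since PSMA4 and PSMB5 have several. The number of transcripts past 1, 2 in the report, was 4 without a filter and 3 with a pseudocount of 1. SNRNP40 was at -2.54 with a pseudocount of 1. Of 288 values for 72 single genes under 4 alternatives, 273 moved by less than 0.1 and 15 by more, all of the 15 with the most expressed transcript in place of the sum. Among these 15, PSMG1 went from 0.047 to -0.091 and NGLY1 from -0.20 to -1.03. Depth and replicate spread are not given by the values used here.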
